A study of Mus musculus with 18 samples.

Results

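API09, described in the series design as an inactive analog of the small molecule apilimod, was compared with stimulation alone in RAW cells, a line of mouse cells that resembles macrophages. The comparison comprised 8 of the 18 arrays of the series, chosen by their titles: 4 arrays of cells given R848 alone and 4 of cells given R848 with API09, at 1, 3, 7 and 22 h. R848 is a synthetic agonist of Toll-like receptor 7. The labels give it at 0.1 mM, which is high for this agonist and may be an error of unit, and they give API09 at 1 uM. All 8 arrays therefore came from stimulated cells, and API09 is the difference between the arms that the labels give. No vehicle is named in the labels for the arm with R848 alone. The question, as far as the design states it, was whether the control compound left the response to R848 as it was. Values of the other 10 arrays (6 of medium alone, of which 2 at 0 h, and 4 of R848 with apilimod at 1 uM) are given beside the results and entered no test.

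Toll-like receptor 7 is an endosomal receptor for single-stranded RNA that signals through the adaptor MyD88 to NF-kB, the MAP kinases and interferon regulatory factors. In macrophages this induces first immediate-early transcription factors and feedback inhibitors, then cytokines and chemokines, and later secreted antimicrobial and matrix proteins. Apilimod inhibits PIKfyve, the lipid kinase that makes phosphatidylinositol 3,5-bisphosphate on endosomes and lysosomes, and was first known as a blocker of interleukin 12 and 23 production. A control compound related to an inhibitor is used to separate effects that need the inhibited target from effects of adding any such molecule.

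There was 1 array for each arm and hour. Whether they represent separate cultures is not stated in the labels. The arms were compared within each hour, so p-values of the mean difference rest on how much that difference varied between hours. This spread may be technical, and it also holds any effect that changed with the hour. It is not a spread among replicates of the same arm and hour. The number of arrays limits the precision. Intensities are on a linear scale, differences are of log2(intensity + 16), R848+API09 minus R848, and 12218 genes were tested. In the main setting, 2-fold and 1.5-fold refer to intensity + 16, so dim genes can differ by more in intensity itself. Macrophage markers were present: Adgre1, Cd68, Csf1r, Itgam, Lyz2, Fcgr1, Cd14, Spi1 and Tyrobp were above the filter of 18.2 on all 8 arrays, and Mertk was above it on 0. Adgre1 had a mean difference of 0.15 between the arms at an unadjusted p of 0.0258 (limma, not called after adjustment). Among 18 markers of T cells, B cells, fibroblasts and epithelial cells the highest intensity was 58.9 (Cd4). Of these, Cd3e, Cd4, Pax5, Dcn, Epcam and Krt8 were also above the filter on all 8 arrays, so passing it does not separate cell types. The lowest intensity of the macrophage markers above the filter was 123.6 (Itgam). The R848+API09 array at 22 h was dimmer than the others by its upper quartile, 87.0 against 103.6 on the R848 array of that hour and 100.9 to 118.6 over the other 17 arrays. Its median intensity over all probe sets was the highest, 19.19 against 17.5 to 18.84.

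Over the 4 pairs of arrays no gene passed the test between R848+API09 and R848 after adjustment over all genes tested. Of 12218 genes, 0 (0%) were called by limma with hour as a block at an adjusted p of 0.05, and the smallest adjusted p was 0.693. At an unadjusted p of 0.05 there were 826 genes (6.76%), 191 higher (1.56%) and 635 lower (5.2%) with API09. This split depended on the scaling of the arrays: it was 383 higher and 324 lower with quantile normalization, and 746 and 145 with each array centred on its median. The median difference was -0.035 and the median standard error was 0.064. A p that misses the threshold does not show that the arms were alike, but the intervals give a range for a sustained difference, gene by gene. The 95% interval of the mean difference lay within 2-fold for all 12218 genes and within 1.5-fold for 12206 of them. An effect at a single hour is diluted in this mean and is not bounded by it.

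Hour by hour fewer genes differed between the R848+API09 and R848 arrays at 1, 3 and 7 h than at 22 h. These are counts between single arrays, with no test. At 1 h and at 3 h, 0 genes (0%) differed by 2-fold or more, at 7 h it was 1 (0.00818%) and at 22 h it was 6 (0.0491%). Between the 2 replicate arrays of medium at 0 h, 0 genes differed by 2-fold and 1 by 1.5-fold (0.00818%). The standard deviation of the differences over genes was 0.12 at 1 h, 0.11 at 3 h, 0.13 at 7 h and 0.22 at 22 h, against 0.093 for the medium replicates. At 1.5-fold or more, the 1 h pair had 1 gene higher with API09 (0.00818%) and 4 lower (0.0327%). The 3 h pair had 0 of either. The 7 h pair had 13 higher (0.106%) against 3 lower (0.0246%), and the 22 h pair 33 higher (0.27%) against 170 lower (1.39%). The median difference was -0.017, -0.0031 and -0.0012 at 1, 3 and 7 h and -0.12 at 22 h, when 71.2% of genes were below 0.

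For scale, R848 differed from medium by 2-fold or more for 52 genes at 1 h (0.426%), 365 at 3 h (2.99%), 687 at 7 h (5.62%) and 746 at 22 h (6.11%). R848+apilimod differed from R848 by that much for 1 gene (0.00818%), 281 (2.3%), 549 (4.49%) and 592 (4.85%). The comparisons of the compounds share the R848 arrays, and the difference between the compounds was not tested here.

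**Figure D1:**
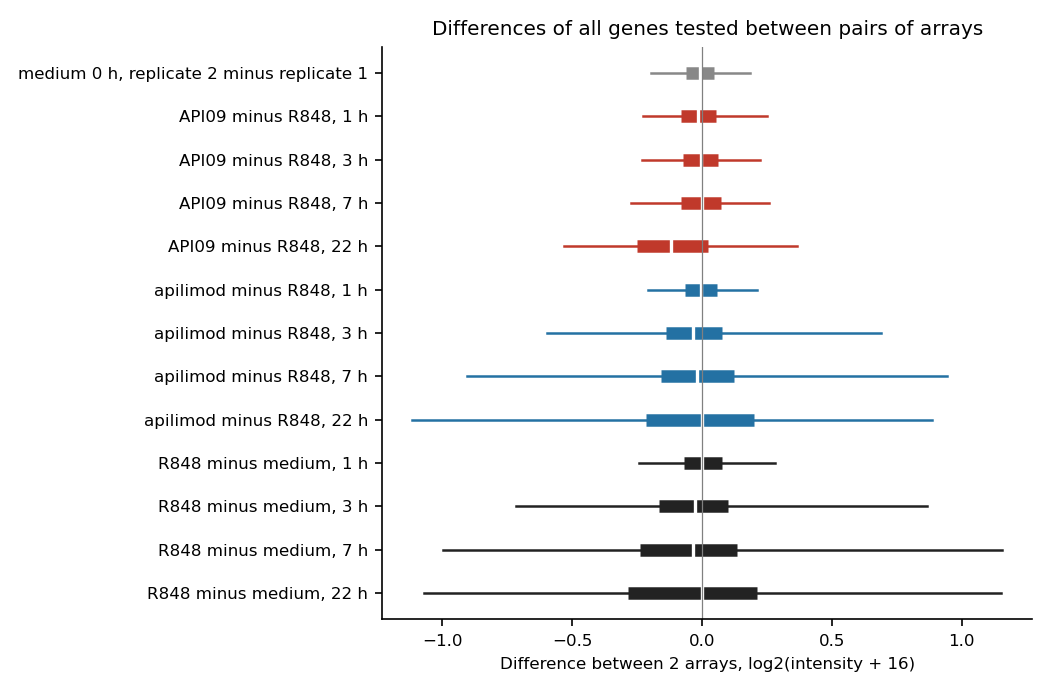
Differences of log2(intensity + 16) over the 12218 genes between pairs of arrays; thick bars span the middle 50% of genes, thin lines the middle 95%, and the white mark is the median. The API09 bars at 1, 3 and 7 h are nearly as narrow as that of the 2 medium replicates, and the 22 h bar is wider and lies to the left, with a median of -0.12.

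The shift at 22 h depended on how the arrays were scaled. With quantile normalization the 1.5-fold genes at 22 h were 184 higher and 77 lower, and with each array centred on its median 285 higher and 14 lower, so the direction of the many small differences at that hour is not settled by these data. The genes were not shifted alike. When genes were put in 5 equal groups by mean intensity, the median difference at 22 h was 0.046 in the dimmest group, then -0.066, -0.23 and -0.20, and -0.12 in the brightest. Probe sets against 18S ribosomal RNA, which serve as controls, averaged 10.53 on the log2 scale on the API09 array, against 8.69 on the R848 array of that hour. The 3-prime minus 5-prime difference of the actin controls was 0.49 against 0.25. The part of these array measures in the 22 h differences was not tested.

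Of the 12218 genes, 2129 (17.4%) had the same sign in all 4 pairs, 523 higher and 1606 lower with API09. The genes with the largest mean differences among these are described here, and none was called (limma, adjusted p = 0.693 for each of the 16). Malat1, a nuclear long non-coding RNA, had the highest mean. Its intensity with R848 was 2279, 1887, 1099 and 891.6 at 1, 3, 7 and 22 h, and with API09 it was 2685, 2154, 2430 and 1134. The API09 array was higher at every hour, most at 7 h, and the mean difference was 0.47 (95% interval 0.15 to 0.80). All 7 probe sets of Malat1 were higher at 7 h, by 0.29 to 1.24, but at 22 h they ran from -0.39 to 0.35.

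Lipg, which encodes endothelial lipase, had the smallest unadjusted p of all genes. Its intensity with R848 was 10.01, 30.0, 412.9 and 254.4 at the 4 hours, and with API09 it was 14.1, 39.4, 552.4 and 336.4. Both arms were far above the medium arrays of these hours (8.97 to 12.6) at 7 and 22 h, and the API09 array was the higher of each pair. The mean difference was 0.32 ± 0.06 (standard error, 4 pairs; 95% interval 0.18 to 0.45). With apilimod the intensity stayed at 10.7 to 14.9. The other 2 probe sets of Lipg did not show the difference in the same way, since the mean difference over pairs ran from -0.030 to 0.32 over its probe sets.

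Nceh1, a neutral cholesterol ester hydrolase, had a mean of 0.30, set by 3 h (0.48) and 7 h (0.61), with 0.06 at 1 h and 0.05 at 22 h. Its 3 probe sets disagreed in sign (-0.38 to 0.30), and the mean over them was -0.067. The other genes higher in all pairs were Fcgbp (0.26), which encodes a mucin-like IgG Fc binding protein, the J-domain gene Dnajc17 (0.25), the CAP-Gly domain gene Clip4 (0.25), Cby2 (0.25) and Wfdc18 (0.24). The other probe set gave a mean of -0.0051 for Dnajc17 and -0.021 for Clip4. The intensity of Wfdc18 with R848 was 25.2 at 1 h and 263.0 at 22 h, and with API09 it was 33.0 and 364.8.

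Gsdme, which encodes the pore-forming protein gasdermin E, had the lowest mean. Its intensity with R848 was 277.4, 281.0, 240.7 and 53.3, and with API09 it was 233.5, 262.6, 163.0 and 25.6. API09 was lower in each pair, with differences of -0.52 at 7 h and -0.74 at 22 h, when the apilimod array was at 29.6. The mean difference was -0.40 ± 0.10 (95% interval -0.62 to -0.17), and the other probe set gave -0.14. Slc43a3, a purine nucleobase transporter, followed with a mean of -0.35 ± 0.08. Its intensity was 88.3, 66.2, 45.2 and 123.4 with R848 and 73.5, 57.5, 26.7 and 82.2 with API09.

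The remaining genes that were lower in all pairs had means close together. They were the deubiquitinase gene Usp40 (-0.33), the splicing-related gene Pnisr (-0.33), Rint1 of the tether between the Golgi and the endoplasmic reticulum (-0.32), Ro60, whose product binds small non-coding RNAs (-0.31), Tasor2 (-0.31) and the DNA helicase gene Brip1 (-0.30). Rint1 was the most even of them, with differences of -0.34, -0.24, -0.22 and -0.47 from 1 to 22 h. It was dim, at 35.9 to 44.9 with R848 and 22.4 to 36.4 with API09, and the arms overlapped, since the API09 array at 7 h was above the R848 array at 3 h. Usp40, Pnisr and Ro60 each had further probe sets with other means, up to -0.10 for Usp40, 0.07 for Pnisr and 0.06 for Ro60.

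**Figure D2:**
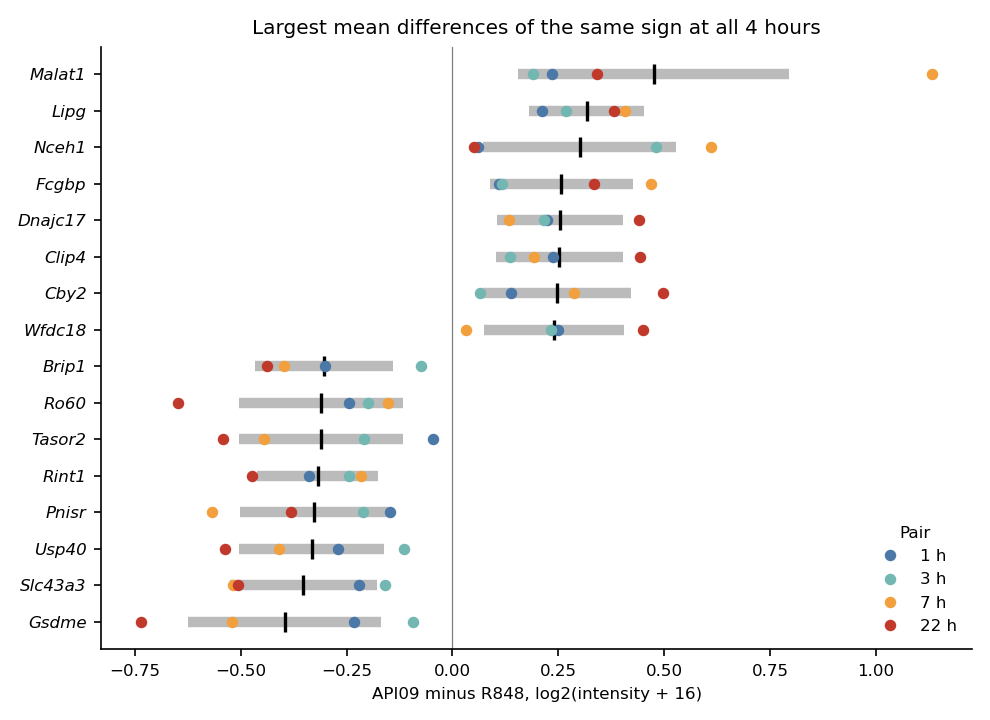
API09 minus R848 on the log2(intensity + 16) scale for the 8 highest and 8 lowest mean differences among genes of the same sign in all 4 pairs; points are hours, black marks the means and grey bars the 95% intervals from limma. For 10 of the genes the 22 h pair lies farthest from 0, and Malat1 stands out by its 7 h value of 1.13.

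The difference between the arms was also fitted against the logarithm of the hour. No gene (0 of 12218, 0%) had a slope called by limma, with a smallest adjusted p of 0.508, and 1034 genes had an unadjusted p under 0.05, 224 with a positive slope and 810 with a negative one. This result rested on all 4 pairs being present. Leaving out 1 pair leaves 1 residual degree of freedom, and the count of called slopes was then 152 without the 1 h pair, 8 without the 3 h pair, 194 without the 7 h pair and 0 without the 22 h pair. On simulated data the fit over all 4 pairs recovered 0% of changes of 0.25, 0.5 or 1 log2 unit from 1 to 22 h. It recovered 84% of changes of 2, so 0 calls do not show that the difference held steady over time.

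The receptor of R848 and its adaptor were not called. Tlr7, the receptor itself, had an intensity of 620.6, 403.7, 409.8 and 171.3 with R848 and 598.4, 410.3, 386.1 and 132.8 with API09, and its mean difference was -0.11 (95% interval -0.27 to 0.05). For the adaptor Myd88 the mean difference was -0.09 (-0.24 to 0.06). Both genes were closest at 3 h and differed most at 22 h, by -0.33 and -0.29, of which -0.12 was the median of all genes.

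Of 18 measured cytokine genes 0 were called between API09 and R848 and none differed by 1.5-fold at any hour. Of all genes, 0.0409%, 0%, 0.131% and 1.66% differed by that much from 1 to 22 h. Tnf, the early cytokine, was at 5879, 7827, 3692 and 923.7 with R848 and at 6438, 7328, 3529 and 771.5 with API09, against 93.9 to 421.6 in medium from 1 to 22 h. The differences were 0.13, -0.09, -0.07 and -0.25, and the mean difference was -0.07 (95% interval -0.23 to 0.09). Il1b, the interleukin 1 beta gene, was at 116.9, 9114, 12030 and 2950 with R848 and at 168.3, 8932, 11680 and 2599 with API09. The arms lay farthest apart at 1 h, by 0.47, the second-highest difference of any gene at that hour. With apilimod Il1b was at 68.6, 150, 342.6 and 393.3, far below both other stimulated arms from 3 h on. The mean difference of API09 from R848 for Il1b was 0.05 (95% interval -0.17 to 0.28).

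Il6, whose product is a pleiotropic inflammatory cytokine, was at 6.01, 62.8, 247.4 and 210.9 with R848 and at 7.58, 65.8, 291.0 and 213.9 with API09. The API09 value was the higher one in each pair, by 0.02 to 0.22 log2 units (95% interval of the mean -0.04 to 0.23). With apilimod Il6 was at 7.39, 13.3, 43.9 and 105.2. Il10, the gene of the anti-inflammatory interleukin 10, was at 17.3, 156.5, 931.1 and 635.5 with R848 and at 19.3, 149.2, 900.1 and 635.2 with API09, a mean difference of -0.01 (-0.13 to 0.12). With apilimod Il10 had a different course, 23.9, 420.1, 47.9 and 10.97. Csf3, the granulocyte colony-stimulating factor gene, was the cytokine with an unadjusted p under 0.05 (mean -0.15, 95% interval -0.29 to -0.01), and its API09 array was the lower of every pair. The largest difference, -0.29, was at 1 h, when Csf3 was dim, at 24.9 with R848 and 17.4 with API09. Later it was at 603, 3771 and 2340 with R848 and 543.5, 3628 and 2161 with API09 (-0.15, -0.06 and -0.11).

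The subunit genes of interleukins 12, 23 and 27 gave little signal, apart from Ebi3. Il12b, the shared p40 subunit of interleukins 12 and 23, was at 10, 36.7, 22.9 and 10.8 with R848 and at 9.63, 33.8, 32.4 and 11.6 with API09. It reached its highest value at 3 h in both arms and was at 9.21 to 11.4 with apilimod. Il23a, the p19 subunit, stayed between 10.9 and 21.3 in both arms. Ebi3, a subunit of interleukin 27, was at 423.4 at 1 h and 1660 at 22 h with R848 and at 394.8 and 1475 with API09, and its mean difference was -0.04 (-0.19 to 0.10). Ifnb1, the interferon beta gene, was highest at 3 h in both arms, at 40.7 with R848 and 34.9 with API09.

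Of 13 measured chemokine genes 0 were called, 0 had an unadjusted p under 0.05 and the list median was 0.029, beside -0.035 over all genes. Cxcl2, which attracts neutrophils, was at 9230, 10770, 6799 and 4872 with R848 and at 11000, 9246, 6092 and 5426 with API09, so that API09 was higher at 1 and 22 h and lower at 3 and 7 h. Ccl5, which attracts T cells and monocytes, was at 151.0, 4359, 5454 and 1736 with R848 and at 163.2, 4723, 6037 and 1834 with API09. API09 was the higher one at each hour for Ccl5, by 0.08 to 0.15 (mean 0.11, 95% interval -0.01 to 0.23). With apilimod Ccl5 was at 146.5, 691.9, 708.6 and 712.7.

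Genes of late effector proteins gave 0 calls among 13 measured, with some wider differences at 22 h. S100a8, a calcium-binding antimicrobial protein gene, was at 53.4, 44.4, 872.9 and 7189 with R848 and at 47.9, 41.5, 991.5 and 8446 with API09, against 132.9 with apilimod at 22 h. Lcn2, which binds bacterial siderophores, reached 5020 with R848, 5661 with API09 and 1913 with apilimod at 22 h. Ptgs2, the inducible cyclooxygenase gene, was at 365.5, 3529, 6539 and 5088 with R848 and at 400.8, 3621, 7020 and 6296 with API09. It was higher in each API09 array, its mean difference was 0.14 (95% interval 0.00059 to 0.29), and it was not called (limma adjusted p = 0.693). The other probe set of Ptgs2 gave a mean of 0.03, with -0.06 at 22 h. Serpinb2, a plasminogen activator inhibitor gene, differed more at 22 h, with 818.7 with R848 against 1158 with API09 (0.49), and was at 7.70 with apilimod. Mmp9, the gelatinase B gene, went the other way at that hour, with 215.6 against 132.0 (-0.65).

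**Figure D3:**
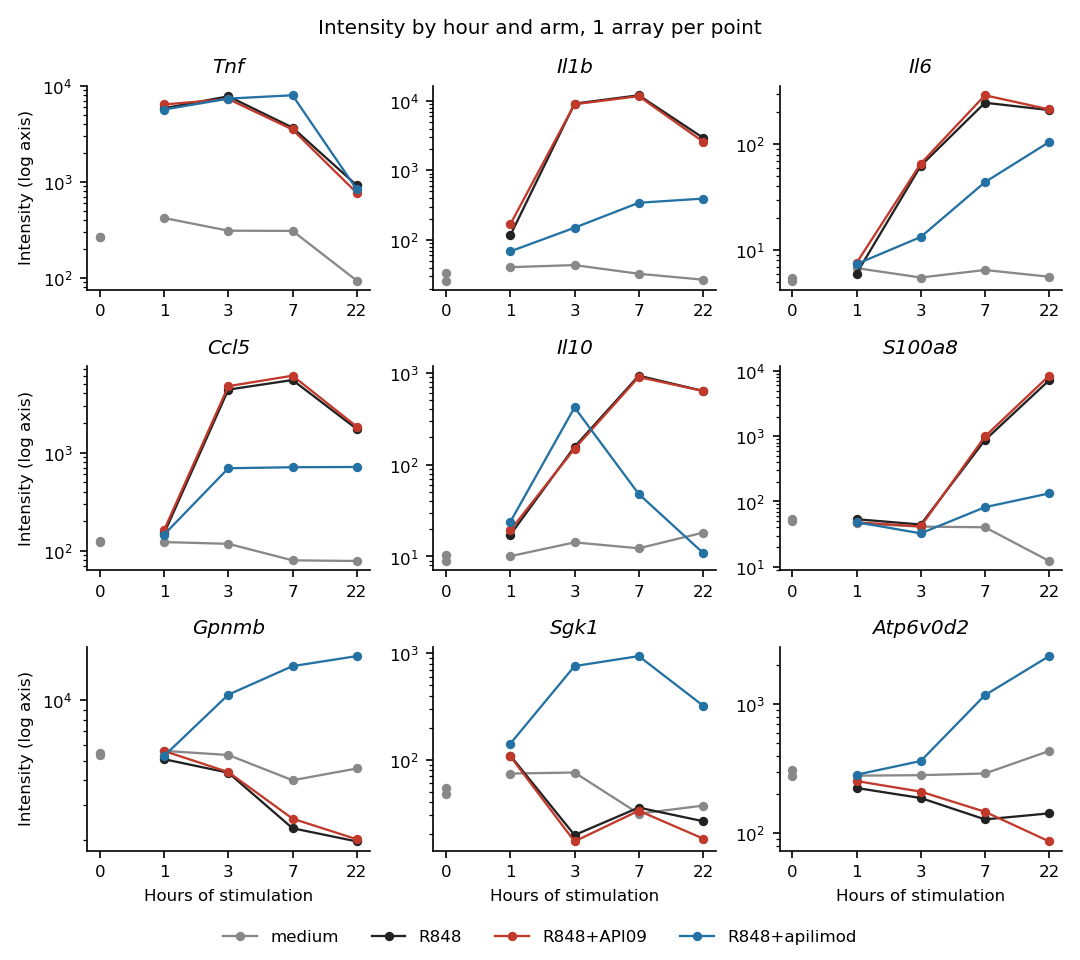
Intensity on a log axis at 0, 1, 3, 7 and 22 h (hours evenly spaced) for 9 genes, 1 array per point, with both medium replicates at 0 h. The R848+API09 line lies near the R848 line for Tnf, Il1b, Il6, Ccl5, Il10, S100a8, Gpnmb and Sgk1, while for Atp6v0d2 the 22 h values are 142.8 and 86.6 and the apilimod value is 2351.

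Immediate-early transcription factor genes, the first to respond, had the highest list median at 1 h (0.15 over 16 measured genes, beside -0.017 for all genes) and the lowest at 22 h (-0.33, beside -0.12). Of the 16, 0 were called, while 1 was higher and 2 were lower at an unadjusted p of 0.05. Atf3, a stress-induced transcription factor gene, was at 954.0, 687.7, 552.1 and 1329 with R848 and at 1240, 768.0, 591.0 and 1406 with API09. The difference was greatest at 1 h, 0.37, and the mean was 0.18 (95% interval 0.03 to 0.33). Fos (mean -0.18) and Klf4 (mean -0.22) were lower in all 4 pairs, with their greatest differences at 22 h, -0.47 and -0.39. The other probe set of Klf4 gave a mean of 0.03.

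For NF-kB pathway and target genes, 0 of 18 measured were called and 0 had an unadjusted p under 0.05. Tnfaip3, a feedback inhibitor, was at 2244, 535.1, 384.9 and 142.8 with R848 and at 2840, 561.2, 365.9 and 166.1 with API09, a difference of 0.34 at 1 h. At 22 h 3 of the 18 were lower by 1.5-fold or more, beside 170 of all 12218 genes (1.39%). None of the 18 was at 1, 3 or 7 h, beside 0.0327%, 0% and 0.0246% of all genes. Nfkbie, an inhibitor of NF-kB, was at 54.1 with R848 and 25.3 with API09 (-0.77), with -0.42 for its other probe set. Rel, the c-Rel subunit, was at 192.3 and 122.2 (-0.59). With quantile normalization Nfkbie was at -0.82 and Rel at -0.36, and with centred arrays they were at -0.56 and -0.38, so these counts depend on the scaling. Traf1, a TNF receptor adaptor, was at 78.1 and 45.0 (-0.63). The apilimod array was at 157.4 for Nfkbie and 102.9 for Rel.

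Interferon-stimulated genes gave 0 calls among 22 measured and 1 gene with an unadjusted p under 0.05, Ifih1, a sensor of viral RNA (mean -0.20, 95% interval -0.36 to -0.05). Their median was 0.095 at 7 h, when 4 of 22 were below 0, and -0.21 at 22 h, when 21 of 22 were. Over all genes the median was -0.0012 at 7 h, with 50.4% below 0, and -0.12 at 22 h, with 71.2% below 0. Ifit3, an inhibitor of viral replication, was at 458.8 against 600.2 at 3 h, 1277 against 1661 at 7 h and 90.2 against 74.7 at 22 h (R848 first). Its difference of -0.23 at 22 h became -0.03 with quantile normalization and -0.02 with centred arrays. Its mean difference was 0.12 (-0.11 to 0.36).

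None of the genes of the pathway that apilimod targets passed the test between API09 and R848. Pikfyve was at 99.0, 78.4, 94.1 and 87.2 with R848 and at 104.0, 74.8, 109.7 and 61.7 with API09, a mean difference of -0.05 (95% interval -0.26 to 0.16). Of 16 measured genes of phosphoinositide enzymes 0 were called and 0 had an unadjusted p under 0.05. Pik3c3, the class III phosphatidylinositol 3-kinase, was lower by 1.5-fold at 22 h, with 99.5 against 59.2 (-0.62), and its differences at 1, 3 and 7 h were between -0.03 and -0.02. Tfeb, the transcription factor gene of lysosome biogenesis, differed most at 7 h, by -0.08, with a mean of -0.0038 (-0.13 to 0.12).

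Genes of the proton pump and the lysosome had medians above 0 with apilimod from 3 h on, and medians near 0 with API09. The median of 16 V-ATPase genes was 0.0096, 0.017, 0.015 and -0.072 from 1 to 22 h for API09 minus R848, and 0.048, 0.37, 0.69 and 0.59 for apilimod minus R848. For 32 lysosomal genes the medians were 0.0065, -0.0046, -0.0032 and -0.046, and with apilimod -0.0012, 0.23, 0.45 and 0.46. Of these lists 0 genes were called for API09, and the lysosomal Ids, which encodes iduronate sulfatase, had an unadjusted p under 0.05 (mean -0.19). Other probe sets of Ids gave means up to 0.10. Atp6v0d2, a V-ATPase subunit gene of macrophages and osteoclasts, was at 224.4, 187.7, 128.2 and 142.8 with R848 and at 254.0, 210.2, 146.9 and 86.6 with API09. API09 was the higher one at 1, 3 and 7 h, by 0.15 to 0.18, and the lower one at 22 h, by -0.63. The other probe set of Atp6v0d2 was at -0.05, 0.02, -0.12 and -0.35 from 1 to 22 h. With apilimod Atp6v0d2 was at 284.3, 362.8, 1173 and 2351. Gpnmb, a glycoprotein of lysosomes, was at 5077, 4347, 2291 and 1968 with R848, at 5581, 4376, 2559 and 2018 with API09 and at 5276, 10690, 14850 and 16670 with apilimod. The mean API09 difference of Gpnmb was 0.09 (-0.04 to 0.21).

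A list of genes that had been higher with apilimod in an earlier look at these arrays was set against API09. The list was chosen on these data, with API09 arrays among its controls, so its API09 values are a description. Of its 12 measured genes 0 were called. Their median was -0.027, 0.066, 0.012 and -0.22 from 1 to 22 h for API09 minus R848 and 0.026, 1.93, 2.87 and 1.82 for apilimod minus R848. Sgk1, a serum- and glucocorticoid-regulated kinase gene, was at 109.5, 19.6, 35.6 and 26.5 with R848, at 107.7, 17.1, 33.3 and 18.2 with API09 and at 141.8, 758.5, 941.2 and 323.2 with apilimod. Fabp4, a fatty acid binding protein gene, was at 38.1, 93.7, 108.0 and 331.8 with R848, at 45.9, 122.2, 106.0 and 275.7 with API09 and at 57.1, 709.2, 2158 and 1334 with apilimod. Il7r, the interleukin 7 receptor gene, had the lowest API09 value of the list, with 83.9 against 44.7 at 22 h (-0.72).

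The corresponding list of genes lower with apilimod, 12 of 12 measured and 0 called, had API09 medians of 0.10, -0.046, 0.032 and -0.087 and apilimod medians of -0.032, -2.11, -3.88 and -3.35. Il33, the gene of an alarmin cytokine, was at 227.8 and 1540 at 7 and 22 h with R848, at 215.9 and 1313 with API09 and at 6.61 and 8.10 with apilimod. Maf, a transcription factor gene, was at 847.8 and 530.0 at those hours with R848, at 1055 and 543.3 with API09 and at 22.2 and 21.8 with apilimod. Timp1, an inhibitor of metalloproteinases, was among the 12 the one that differed most with API09 at 22 h in the direction of apilimod, with 1260 against 899.1 (-0.48), and it was at 16.2 with apilimod.

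Cholesterol synthesis genes had API09 medians of -0.041, 0.036, 0.021 and -0.20 over 20 measured genes, beside apilimod medians of -0.015, 1.05, 1.28 and -0.42, and 0 were called. Insig1, a feedback regulator of this pathway, was at 325.2, 165.7, 286.6 and 133.8 with R848, at 296.0, 191.8, 270.7 and 114.9 with API09 and at 332.3, 676.0, 825.6 and 232.9 with apilimod. Fatty acid synthesis genes (14 measured, 0 called) had API09 medians between -0.10 and 0.044. In that list the elongase gene Elovl6 was lower by 1.5-fold at 22 h, with 99.8 against 61.0 (-0.59).

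**Figure D4:**
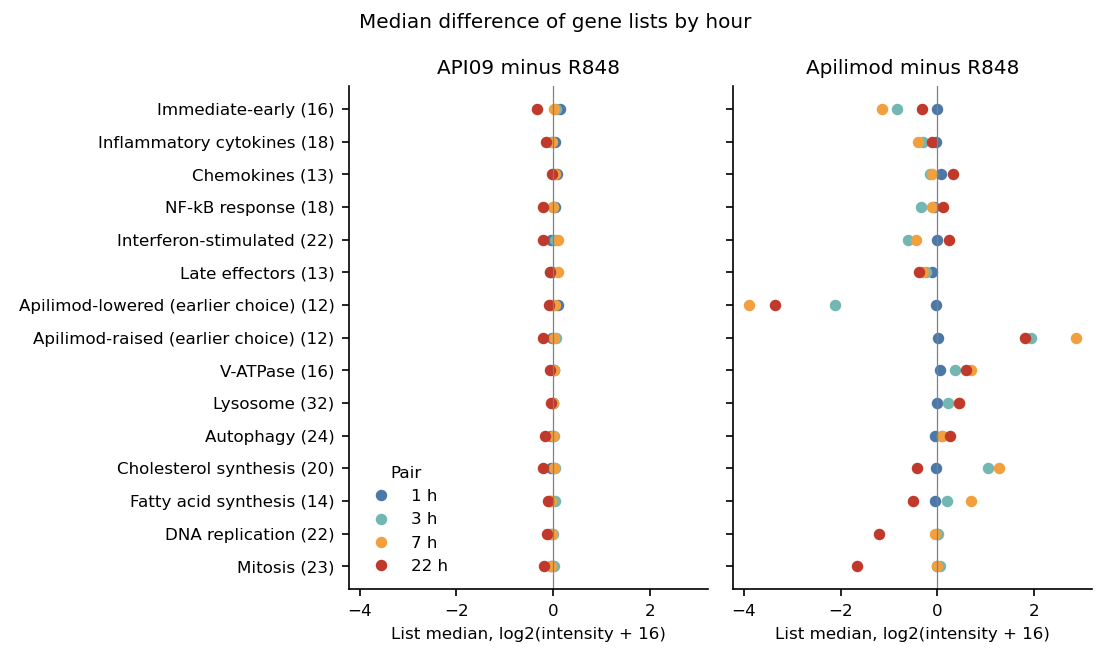
Median difference of each gene list by hour, on the log2(intensity + 16) scale, for API09 minus R848 (left) and apilimod minus R848 (right), with the number of measured genes in brackets; both panels share the R848 arrays. API09 medians lie between -0.33 and 0.15, while apilimod medians reach -3.88 and 2.87 in the lists chosen earlier on these data.

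Cell cycle genes at 22 h were an example of a large apilimod difference with a small one for API09. The median of 23 mitosis genes was -0.039, 0.020, -0.037 and -0.20 for API09 and 0.0032, 0.052, 0.0063 and -1.65 for apilimod. The median of 22 DNA replication genes was -0.13 for API09 at 22 h and -1.19 for apilimod. For API09 0 of either list were called. Cenpf, a kinetochore protein gene, and Pola1, the catalytic subunit of DNA polymerase alpha, were lower at an unadjusted p of 0.05. Cenpf was at 364.3, 183.5, 170.7 and 102.9 with R848 and at 366.2, 178.6, 121.2 and 72.3 with API09, with differences of 0.01 and -0.04 at 1 and 3 h and of -0.44 and -0.43 at 7 and 22 h. Another of its 3 probe sets gave a mean of 0.03.

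The remaining lists had API09 medians at 22 h near that of all genes. The median at that hour was -0.16 for 24 autophagy genes, -0.12 for 9 genes of the MiT/TFE factors and their folliculin regulators, -0.12 for 15 genes of the ATF4 stress response and -0.060 for 18 of the unfolded protein response. It was -0.10 for 11 heat shock genes, -0.15 for 13 NRF2 targets, -0.16 for 19 genes of ribosome biogenesis, -0.12 for 23 of oxidative phosphorylation and -0.062 for 21 of glycolysis and hypoxia. In the MiT/TFE list, Fnip2, a folliculin partner, was at 490.5, 242.1, 978.9 and 479.3 with R848, at 501.6, 248.0, 830.2 and 448.2 with API09 and at 424.2, 2866, 2098 and 1016 with apilimod. Over 22 lists together, with 393 genes measured of 435, 0 were called, 2 were higher (0.509%) and 16 were lower (4.07%) at an unadjusted p of 0.05, beside 1.56% and 5.2% of all genes in the scaling as deposited. List medians ran from -0.058 to 0.15 at 1 h, -0.070 to 0.071 at 3 h and -0.072 to 0.11 at 7 h, and all 22 were below 0 at 22 h (-0.33 to -0.017). At 22 h 9 of the 393 genes (2.29%) were lower by 1.5-fold and 0 higher, against 1.39% and 0.27% of all genes. At 1, 3 and 7 h none of the 393 differed by 1.5-fold.

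Among the members with an unadjusted p under 0.05, Ddit4, an mTORC1 inhibitor induced by stress, had the lowest mean (-0.24, 95% interval -0.39 to -0.10). Its intensity was 46.8, 61.0, 134.7 and 355.0 with R848 and 32.4, 48.2, 126.5 and 294.7 with API09, lower in each pair, while with apilimod it was 54.3, 241.4, 417.7 and 301.4. Polr1b, a subunit of RNA polymerase I, Nolc1 and Wdr12, nucleolar proteins of ribosome production, were lower in all pairs, with means of -0.19, -0.17 and -0.16. So were Atg13 of the autophagy initiation complex (-0.19), Atg14 of the autophagy lipid kinase complex (-0.15), Fnip1, a folliculin partner (-0.15), the chaperone gene Hsp90aa1 (-0.14) and the carbonic anhydrase gene Car9 (-0.23). None was called by limma (adjusted p = 0.693 for each). These values are of the brightest probe set of each gene. Other probe sets gave means up to 0.005 for Atg13, 0.04 for Fnip1, 0.09 for Hsp90aa1 and 0.03 for Nolc1. Ddit4, Polr1b, Atg14 and Car9 had 1 probe set each.

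At 1 h 5 genes differed by 1.5-fold or more, 1 higher and 4 lower with API09. Klf11, a Krüppel-like transcription factor gene, had 36.5 with R848 and 70.5 with API09 (0.72), and differences of -0.13 to 0.16 at the later hours. Next were Il1b (0.47), the vesicle GTPase gene Rab3a (0.45), the long non-coding RNA Neat1 (0.45) and C730034F03Rik (0.45). The lowest were Tmsb15a, an actin-binding thymosin gene, with 33.0 against 13.8 (-0.72), the homeobox gene Cux2 (-0.68), Klhl17 (-0.63), Scrn2 (-0.60) and Ptchd1 (-0.51). Of these, Tmsb15a, Cux2, Klhl17 and Scrn2 were higher with API09 at 22 h, by 0.65, 0.41, 0.55 and 0.45. Other probe sets at 1 h were at 0.05 for Klhl17, 0.13 for Scrn2 and up to 0.03 for Ptchd1.

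At 3 h no gene reached 1.5-fold. The highest were Sec22c of vesicle transport (0.50), Wdcp (0.49), the transcriptional repressor gene Zbtb7a (0.49), Nceh1 (0.48) and Pramel1 (0.47). The lowest were Dmwd (-0.57), Zfp866 (-0.51), the actin regulator gene Carmil1 (-0.51), Abtb2 (-0.50) and the homeobox gene Hoxb6 (-0.48). Other probe sets of 3 of these genes had the opposite sign, at -0.11 for Sec22c, -0.10 for Wdcp and 0.24 for Abtb2. Zbtb7a kept its difference at 7 h, with 204.2 against 328.9 (0.65), and was at -0.24 at 22 h. Its other probe sets were lower, down to -0.22 at 3 h and 0.05 at 7 h.

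At 7 h the gene past 2-fold was Malat1, with 1099 against 2430 (1.13). It was followed by Gm9706 (162.0 against 301.1, 0.83), the histone H3 lysine 4 demethylase gene Kdm5a (178.2 against 318.6, 0.79), the J-domain gene Dnajc21 (355.7 against 596.6, 0.72) and the cyclophilin-related Nktr (132.8 against 222.0, 0.68). For Kdm5a, Dnajc21 and Nktr other probe sets of the gene ran down to -0.35, -0.15 and -0.26 at that hour. The lowest were Smad3, a transducer of TGF-beta signals, with 58.2 against 30.5 (-0.67), the mitochondrially encoded ND5 (-0.61), the ubiquitin ligase gene Rnf180 (-0.59), the RNA helicase gene Ddx52 (-0.57) and Arfgef3 (-0.57). The 3 probe sets of Smad3 ran from -0.67 to 0.15, while both of Ddx52 were lower (-0.57 and -0.50). On this API09 array the 18S control probe sets were at 10.14 on the log2 scale, against 8.54 on the R848 array of 7 h, and their part in these differences was not tested.

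At 22 h 6 genes differed by 2-fold or more, and their differences at the earlier hours lay between -0.32 and 0.30, both ends being of Rtel1. Gpr84, a receptor for medium-chain fatty acids, was at 1847, 6800, 1771 and 159.7 with R848 and at 2069, 6736, 1701 and 49.6 with API09. The arms were close up to 7 h and lay apart at 22 h by -1.42, or -1.30 relative to the median of all genes, when the apilimod array was at 74.3. Sapcd1 was at 15.8 to 20.6 in both arms up to 7 h, and at 22 h it was at 111.5 with R848, 36.3 with API09 and 22.2 with apilimod (-1.28). Tmem69 was at 88.6 against 33.7 (-1.07), and its 4 probe sets were all lower, by -1.07 to -0.47. Nfam1, an immunoreceptor with an activation motif, was at 203.3 against 92.6 (-1.01), with -0.45 for its other probe set. Dcstamp, which is needed for the fusion of macrophages and osteoclasts, came next at 53.9 against 19.2 (-0.99), with the apilimod array at 115.6 and differences of -0.02 to 0.05 at the earlier hours.

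The highest genes at 22 h rested on single probe sets. Rtel1, a telomere helicase, was at 485.4 with R848 and 1062 with API09 (1.1), but its 3 probe sets ran from -0.15 to 1.1. Bcar1, an adaptor of integrin signalling, was at 23.2 against 63.1 (1.01), with -0.08 for its other probe set. Stmn3, a microtubule-destabilising protein gene, had 1 probe set, at 30.3 against 69.0 (0.88). Snrnp40 of the spliceosome was at 566.6 against 1051 (0.87) and Vat1 at 698.8 against 1218 (0.79), and other probe sets of these genes were at -0.24 and -0.14. In the RefSeq table of mouse assembly GRCm38.p6, Stmn3 and Rtel1 lie next to each other with 0 genes between them, a point looked up after their values were seen. With quantile normalization the differences kept their sign, from -1.33 for Gpr84 to 1.24 for Bcar1, and so they did with centred arrays, from -1.21 for Gpr84 to 1.31 for Rtel1. Nfam1 was then under 2-fold with quantile normalization (-0.78), and Tmem69 (-0.86) and Nfam1 (-0.81) with centred arrays.

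**Figure D5:**
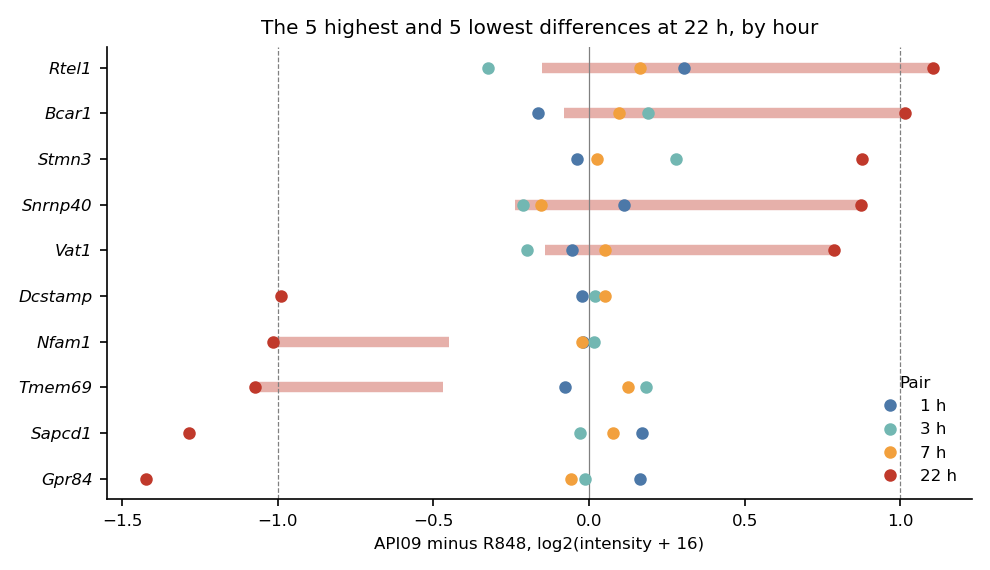
API09 minus R848 on the log2(intensity + 16) scale for the 5 highest and 5 lowest genes at 22 h, with points for the hours and pale bars for the range over all probe sets of the gene at 22 h; dashed lines mark 2-fold. The 22 h points lie apart from the earlier hours, from -1.42 for Gpr84 to 1.1 for Rtel1, and for Rtel1, Bcar1, Snrnp40 and Vat1 the bar crosses 0.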

How the data were processed

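The authors deposited Affymetrix intensity values on a linear scale, from NuGEN-amplified RNA per the labels' protocols. How background, summarisation and normalization were done is not given in the sources used here. The submitters' processing notes list limma, without version or role.

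Of 45101 probe sets, 34958 have 1 gene symbol in the platform annotation (34754 matched by Entrez identifier). Those above 18.19, the median of the 8 arrays, on at least 2 arrays were kept (23953, of which 21213 have 1 symbol), and the brightest stood for its gene. Adding 16 before log2 understates differences of dim genes.

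Tests used limma 3.58.1 in R 4.3.3 on the 8 arrays, two-sided, with hour as a block and Benjamini-Hochberg adjustment over 12218 genes at 0.05. The time fit added arm by centred log2 hour. Named genes were the 8 highest and 8 lowest means of one sign in all pairs, the 5 highest and 5 lowest at each hour, up to 3 members of each list by absolute mean difference, and fixed genes. Traf1 and the markers fall outside this rule and Traf1 was named after its value was seen. The members and the lists were chosen with earlier results of these data known.

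On simulated data of 12218 genes, 50 changed at each size, the fit over pairs recovered 20% of log2 differences of 0.25, 82% of 0.5, 98% of 1 and 100% of 2, and called 4 of 12018 unchanged genes. The time fit recovered 84% at 2 and 0% below. The simulated noise was independent, with the same spread at all hours for a gene. It had neither the wider spread nor the shift of the 22 h pair, so recovery on the real arrays may differ. Alternatives were quantile normalization, centred arrays, other filters, a pseudocount of 1, the mean over probe sets, all probe sets, a variance trend with robust estimation, no hour block, and each pair left out.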

Additional observations from a re-analysis of the deposited data

Results flagged for a closer look

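The R848+API09 array at 22 h had the lowest upper quartile of its arm, 87.02 against 111.3 to 114.6 at 1, 3 and 7 h, a gap that exceeded Dixon's critical value for 4 arrays. Chance flags about 1 in 20 such groups.

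Probe sets against 18S ribosomal RNA entered no comparison. Their mean log2 intensity was 10.14 with API09 at 7 h, and 10.53 with API09 at 22 h, above the 7.945 to 9.358 of the 6 medium arrays. The other R848+API09 arrays were at 8 and 8.556, and the R848 arrays at 7.998 to 8.999.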

How the results depend on the processing

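The count of genes called over the 4 pairs was 0 under every alternative run, with smallest adjusted p-values from 0.634 to 1 (limma), and unadjusted counts between 11 (no hour block) and 1684 (all probe sets). The unadjusted split of 191 higher and 635 lower became 383 and 324 with quantile normalization and 746 and 145 with centred arrays. For the change with time, leaving out 1 pair gave 0 to 194 called slopes. They were 152 without the 1 h pair, 8 without the 3 h pair and 194 without the 7 h pair, and the cause was not tested. Genes past 2-fold were 1 at 1 h and 24 at 22 h with a pseudocount of 1, and 0 at 7 h and 2 at 22 h with the mean over probe sets. With 1.5-fold in place of 2-fold in the main setting they were 5 at 1 h, 16 at 7 h and 203 at 22 h. A pseudocount of 1 turned the higher counts past 1.5-fold into 23, 11, 40 and 161 over the 4 hours in order, and the lower ones into 23, 18, 28 and 448. The mean over probe sets gave 1, 0, 5 and 19 higher, with 2, 0, 2 and 90 lower. At 22 h quantile normalization gave 8 genes past 2-fold and centring 6. With the mean over probe sets Nceh1 reversed to -0.067. Of 1781 values of named genes under alternatives, 99 changed sign, 98 of them with a 95% interval that includes 0, which are not counted as reversals. The main fit was paired by hour, and the labels give these arms no replicate numbers to pair by. The low upper quartile of the API09 array at 22 h and the use of 1 array per arm and hour limit what these data can show.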
